A study of Mus musculus with 11 samples.

Results

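The genes described here are 31 transporters and peptidases with which the absorptive cell of the intestine, the enterocyte, takes up dietary protein. They were picked by gene symbol from the 24250 genes in the authors' table of all libraries, and all 31 were found there. By known role they fell into 10 apical transporters, which face the gut lumen, 7 basolateral transporters, which face the blood, and 14 peptidases. Most of the peptidases sit in the brush border, the microvillus membrane of the enterocyte, but Lap3, Xpnpep1 and Pepd are cytosolic enzymes, so the set reaches past the brush border.

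RNA was sequenced from mouse small intestine in 11 libraries. The FSP group (4 libraries) is named in the labels for a herbal powder with Poria, known in Chinese medicine as Wu Ling San and called FSP here. The HFD group (4 libraries) and the ND group (3 libraries) are named in the labels by these letters alone, and obese mice are spoken of in the title of the series. The diet of the FSP mice, the strain, age and sex, the dose and its length, the intestinal stretch sampled and any batch are not stated in the labels. Whether each library is a mouse of its own is not stated either, so the p-values rest on the spread between libraries, technical spread included.

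Protein is cut in the gut lumen by pancreatic enzymes and then at the brush border by membrane peptidases into amino acids and very short peptides. Sodium- or proton-coupled carriers and amino acid exchangers move these across the apical membrane, cytosolic peptidases split the peptides, and a separate set of exchangers and uniporters passes the amino acids on to the blood. Several of the carriers work only as a pair of a light chain, which transports, and a heavy chain, which brings it to the membrane, and many of these genes differ in level along the length of the small intestine.

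Levels are FPKM, fragments scaled to gene length and library total, as deposited by the authors, so that levels of different genes can be set side by side. The libraries held 3.18e+07 to 3.84e+07 fragments, estimated from the step size of low values. The 9 epithelial marker genes (Epcam, Cdh1, Vil1, Krt8 and others) had a mean log2(FPKM + 1) of 8.29 to 8.58 in FSP, 7.49 to 8.21 in HFD and 8.31 to 8.35 in ND libraries. The 13 mitochondrially encoded protein genes made up 12.9% to 21.9% of summed FPKM in FSP, 18.1% to 40.4% in HFD and 16.3% to 22.2% in ND libraries, with the highest share in HFD 1. A position score, the mean log2(FPKM + 1) of 10 distal small intestine genes (Fabp6, Slc10a2 and others) minus that of 11 proximal ones (Slc46a1, Fabp1 and others), ran from −0.15 to 2.45 in FSP libraries, from −1.94 to −0.91 in HFD libraries and from 1.53 to 4.12 in ND libraries, so that HFD overlapped neither of the others. Summed FPKM of the 12 B and plasma cell markers ran from 87.4 to 807 in FSP, 126 to 295 in HFD and 38.4 to 65.0 in ND libraries.

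In HFD against ND, 16 of the members were lower and none was higher past the threshold (limma adjusted p under 0.05 over all genes tested). The metalloprotease subunit Mep1a averaged 31.2 ± 9.96 FPKM in HFD and 312 ± 110.3 FPKM in ND (SD, n = 4 and 3), and the glutamate transporter Slc1a1 averaged 6.11 ± 3.16 FPKM in HFD and 52.1 ± 21.7 FPKM in ND. Of the 30 members that passed the filter on low values, 16 fell, namely 5 of 10 apical transporters, 2 of 7 basolateral transporters and 9 of 13 peptidases. Over all 10296 genes tested, 20.5% passed, 15.1% falling and 5.36% rising. All HFD libraries lay below all ND libraries for 16 members and above them for 0, where 33.6% and 9.28% of all genes tested were separated downward and upward. The median log2 change was −0.58 over the 30 members, against −0.21 over all genes tested, and by role it was −0.72 for apical transporters, −0.24 for basolateral transporters and −0.79 for peptidases. In whole tissue, fewer enterocytes and less RNA per enterocyte cannot be told apart, and 3 of the 9 epithelial markers fell too (Cdh17, Epcam and Cdx1, log2 changes −0.86, −0.58 and −0.45).

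The direction of the whole table in this comparison depended on how libraries were scaled. As deposited, 552 genes rose and 1557 fell, whereas median-ratio scaling, which centres all genes at no change, gave 899 and 799. With that scaling 11 of the 16 members still fell, and the neprilysin gene Mme and the transporter genes Slc7a15 and Slc7a8 rose. When the position score entered the fit as a covariate, 0 members and 0 genes of the table were past the threshold (2 members and 734 genes at an unadjusted limma p under 0.05). The median log2 change of the members was −0.68 in that fit, against −0.58 without the covariate. The score did not overlap between HFD and ND libraries, so position and group cannot be told apart here.

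In FSP against HFD, part of the same set was higher and no member was lower past the threshold. The aminopeptidase gene Xpnpep2 averaged 109.7 ± 31.7 FPKM in FSP and 19.2 ± 10.1 FPKM in HFD (SD, n = 4 each), and Mep1a averaged 153 ± 82.1 FPKM in FSP and 31.2 ± 9.96 FPKM in HFD. Of the 30 tested members 12 rose, namely 3 of 10 apical transporters, 0 of 7 basolateral transporters and 9 of 13 peptidases, where 3.74% of all genes tested passed, 2.83% rising and 0.913% falling. All FSP libraries lay above all HFD libraries for 16 members and below them for 0, where 8.52% and 2.3% of all genes tested were so separated. Of the 9 epithelial markers Epcam rose too, by 0.71 on the log2 scale. Of the basolateral transporters, Slc43a2 and Slc7a7 had an unadjusted limma p under 0.05. The median log2 change was 0.69 over the members, against 0.12 over all genes tested, and by role it was 0.69, 0.10 and 0.78 for apical transporters, basolateral transporters and peptidases. This comparison uses the same 4 HFD libraries as the one before, so that opposite signs in them are not independent.

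The number of calls in FSP against HFD rested on single libraries more than in HFD against ND. Without FSP 4 only 3 of the 12 members (Slc7a9, Naaladl1 and Xpnpep2) passed the threshold, without HFD 3 there were 6 and without FSP 1 there were 7, while leaving out HFD 1 kept 11. The 9 members lost without FSP 4 had log2 changes of 0.64 to 1.84 there, against 0.68 to 2.15 with all libraries, and the genes called in the whole table numbered 48 against 385. With the position score as a covariate 0 members passed (12 at an unadjusted limma p under 0.05). The median log2 change of the members was 0.67 in that fit, against 0.69 without the covariate. The score did not overlap between FSP and HFD libraries either, so position and group cannot be told apart in this comparison. In the table as a whole 291 genes rose and 94 fell as deposited, against 142 and 103 with median-ratio scaling, which kept 8 of the 12 members.

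In FSP against ND, 0 of the 30 members passed the threshold, where 1.03% of all genes tested did, 0.699% rising and 0.33% falling. At an unadjusted limma p under 0.05 there were 6, of which Slc7a15, Slc7a8 and Pepd had positive and Slc1a1, Mep1a and Slc38a2 negative log2 changes. The median log2 change was 0.01 over the members and −0.07 over all genes tested. The values of FSP and ND libraries did not overlap for 6 members, 3 higher in FSP (Slc7a15, Slc3a2 and Pepd) and 3 lower in FSP (Slc7a9, Slc1a1 and Slc38a2), where 5.57% and 10.9% of all genes tested showed such separation upward and downward.

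**Figure D1:**
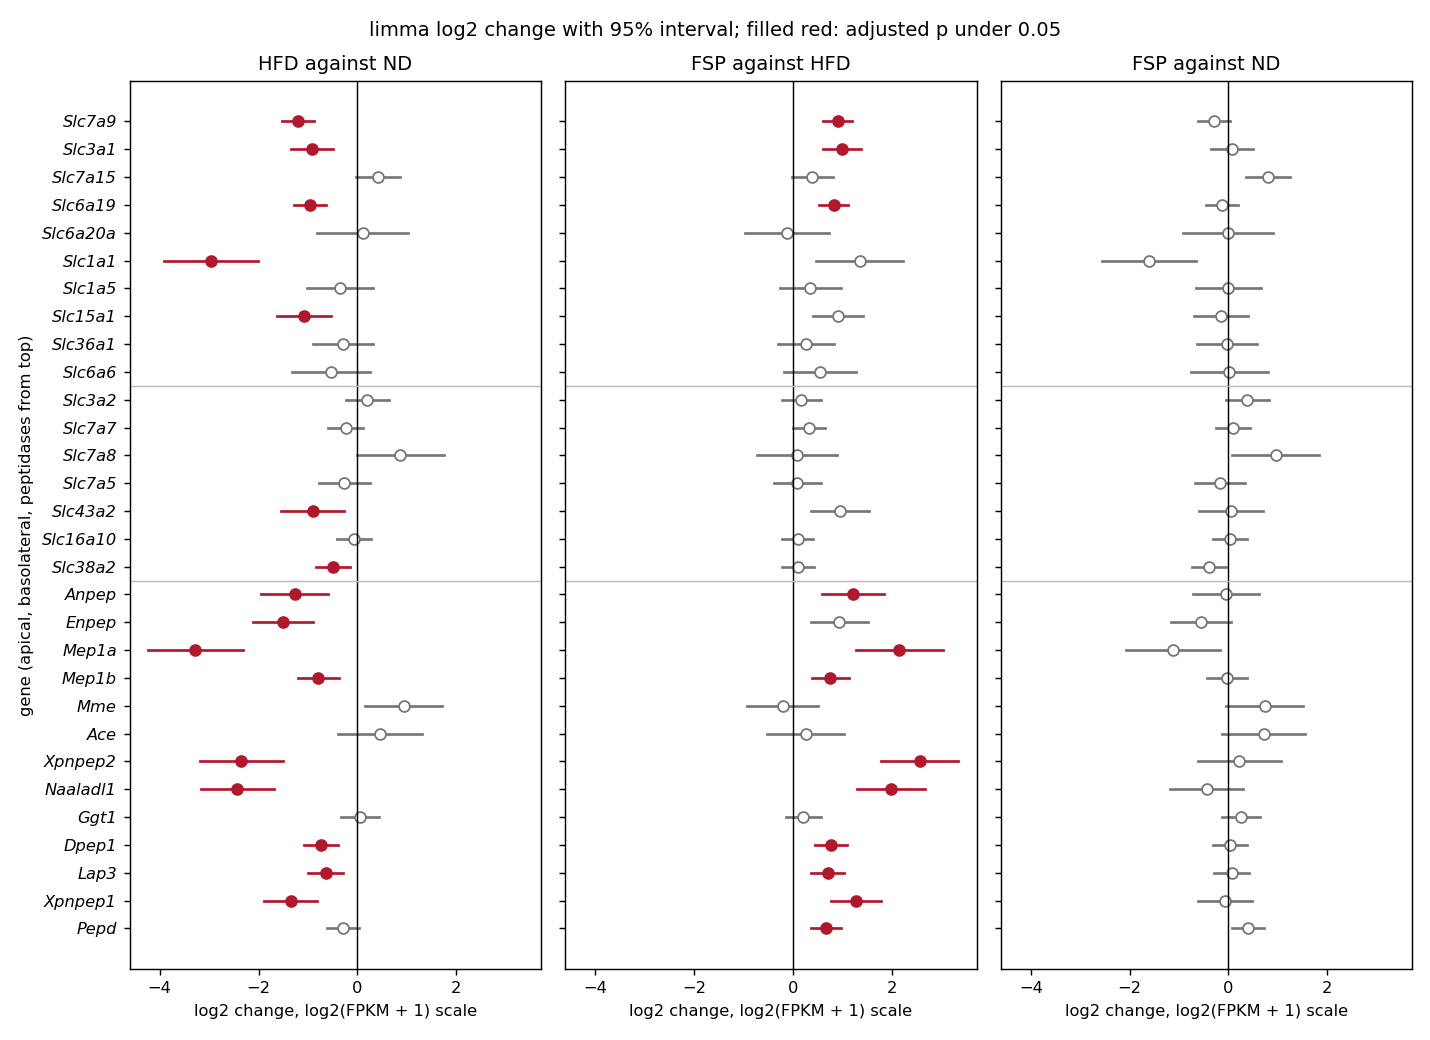
Log2 change on the log2(FPKM + 1) scale with its 95% interval (limma) for the 30 tested members, ordered from top to bottom as apical transporters, basolateral transporters and peptidases, with a panel each for HFD against ND, FSP against HFD, and FSP against ND; filled red points passed the adjusted threshold. Filled points lie left of 0 in HFD against ND (16 genes) and right of 0 in FSP against HFD (12 genes), and there are none in FSP against ND.

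Both genes for the apical exchanger of cystine and cationic amino acids passed the threshold in HFD against ND and in FSP against HFD. Slc7a9 encodes its light chain and Slc3a1 its heavy chain, and loss of either causes cystinuria. Their promoters are given here beside those of Mep1a, the member with the largest fall in HFD against ND, and Xpnpep2, the member with the largest rise in FSP against HFD, because all of them fell in HFD and rose in FSP. Each runs from 250 bases before to 50 bases after a RefSeq transcription start (build GRCm38.p6, for Slc7a9 the first of 2 starts), 5′ to 3′ on the gene's own strand, and capitals mark matches, on either strand, to letters of gut epithelial factors: TTTATNG for CDX, CAAAGTNCA for HNF4 and AGATAA for GATA.
Slc7a9, chr7:35448842-35449141, plus strand: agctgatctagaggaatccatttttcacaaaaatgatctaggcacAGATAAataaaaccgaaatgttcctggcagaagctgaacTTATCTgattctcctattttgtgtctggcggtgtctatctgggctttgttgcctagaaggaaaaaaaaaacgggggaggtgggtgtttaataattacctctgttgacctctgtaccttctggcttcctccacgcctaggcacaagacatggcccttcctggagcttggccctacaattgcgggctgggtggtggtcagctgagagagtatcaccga
Slc3a1, chr17:85028097-85028396, plus strand: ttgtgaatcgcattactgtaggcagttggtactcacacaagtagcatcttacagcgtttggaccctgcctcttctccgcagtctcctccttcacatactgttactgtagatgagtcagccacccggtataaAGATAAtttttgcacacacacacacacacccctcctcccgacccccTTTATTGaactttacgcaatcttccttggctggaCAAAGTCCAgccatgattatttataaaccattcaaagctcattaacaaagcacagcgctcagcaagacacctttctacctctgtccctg
Mep1a, chr17:43502724-43503023, minus strand: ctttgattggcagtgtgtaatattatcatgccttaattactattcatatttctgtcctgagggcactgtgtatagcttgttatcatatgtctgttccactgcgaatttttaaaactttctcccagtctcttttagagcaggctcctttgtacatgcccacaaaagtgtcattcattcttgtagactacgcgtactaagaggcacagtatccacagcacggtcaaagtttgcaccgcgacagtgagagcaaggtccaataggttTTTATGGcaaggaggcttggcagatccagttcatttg
Xpnpep2, chrX:48108475-48108774, plus strand: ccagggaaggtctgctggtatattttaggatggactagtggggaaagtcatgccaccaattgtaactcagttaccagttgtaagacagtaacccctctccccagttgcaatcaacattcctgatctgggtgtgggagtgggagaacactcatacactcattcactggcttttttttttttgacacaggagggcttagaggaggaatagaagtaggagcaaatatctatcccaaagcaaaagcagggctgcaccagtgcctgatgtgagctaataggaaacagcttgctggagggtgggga

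The Slc7a9 window held 2 GATA matches, starting 205 and 166 bases before the start. The Slc3a1 window held a GATA match 119 bases, a CDX match 73 bases and an HNF4 match 39 bases before the start. Mep1a had a CDX match 14 bases after its start, and the Xpnpep2 window held none of the 3 motifs. Over 32851 promoters of this length, 10.9% held the CDX letters, 1.41% the HNF4 letters and 11.2% the GATA letters, and of the 26 members with an entry 4, 1 and 4 held them. A match describes the letters and shows no binding.

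Slc7a9 stood at 109, 130.4, 112 and 125 FPKM in FSP libraries, at 47.1, 67.1, 69.4 and 72.0 FPKM in HFD libraries and at 148, 152 and 136 FPKM in ND libraries. Its heavy chain partner Slc3a1 stood at 137, 169, 180.2 and 174 FPKM in FSP libraries, at 56.0, 78.9, 94.8 and 107 FPKM in HFD libraries and at 159, 159.6 and 148 FPKM in ND libraries. Every HFD library lay below every FSP and every ND library for both genes, and for Slc7a9 FSP also lay below ND. Slc7a9 fell by 1.19 on the log2 scale in HFD against ND (SE 0.15, limma adjusted p = 0.000789) and rose by 0.90 in FSP against HFD (SE 0.14, adjusted p = 0.00987). Slc3a1 fell by 0.92 (SE 0.19, adjusted p = 0.00791) and rose by 0.99 (SE 0.18, adjusted p = 0.0175), the rise not holding without FSP 4 (adjusted p = 0.0631). Exons of Slc3a1 share 601 bases with Prepl on the other strand, a gene at 3.82 FPKM on average, and whether counting used strand is not known from the labels.

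The neutral amino acid transporter Slc6a19, which carries the bulk of neutral amino acids in the intestine, followed the same order. Its level was 261, 287, 263 and 322 FPKM in FSP libraries, 122, 160.1, 182 and 177 FPKM in HFD libraries and 320.0, 302 and 306 FPKM in ND libraries, with HFD below both other groups throughout. It fell by 0.96 in HFD against ND (SE 0.15, limma adjusted p = 0.00168) and rose by 0.83 in FSP against HFD (SE 0.13, adjusted p = 0.0131, and 0.0519 without FSP 4). Collectrin (Cltrn), which brings Slc6a19 to the membrane in the kidney, was at 0.406 FPKM or less in every library.

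Slc1a1, the apical carrier of glutamate and aspartate, separated all 3 groups. It stood at 13.4, 13.3, 12.1 and 25.8 FPKM in FSP libraries, at 1.76, 9.14, 7.46 and 6.09 FPKM in HFD libraries and at 73.4, 52.7 and 30.0 FPKM in ND libraries, and no library of any group reached into another group. It fell by 2.96 in HFD against ND (SE 0.44, limma adjusted p = 0.00147). The log2 change of 1.36 in FSP against HFD (SE 0.40, adjusted p = 0.0935) and that of −1.61 in FSP against ND (SE 0.44, adjusted p = 0.118) missed the threshold. In the fit of all groups with a shared spread, the change against ND passed without HFD 1 (adjusted p = 0.0345) and ranged from 0.0345 to 0.627 over the alternatives. Exons of Slc1a1 share 2631 bases with 4430402I18Rik on the other strand. Slc15a1, the proton-coupled carrier of di- and tripeptides, had 168, 191, 185 and 269 FPKM in FSP libraries, 63.6, 120.2, 129 and 126 FPKM in HFD libraries and 193, 213 and 271 FPKM in ND libraries. HFD again lay below both other groups, and Slc15a1 fell by 1.07 in HFD against ND (SE 0.25, adjusted p = 0.0132), while its log2 change of 0.91 in FSP against HFD missed the threshold (SE 0.23, adjusted p = 0.0543).

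The other 5 apical transporters passed in no comparison with all libraries as deposited. Slc7a15, a light chain of the exchanger family that rodents keep, averaged 37.7 FPKM in FSP (30.8 to 43.6), 28.7 FPKM in HFD (20.5 to 34.0) and 21.3 FPKM in ND (16.6 to 26.9). Its log2 change of 0.81 in FSP against ND had a limma adjusted p of 0.0932, which ranged from 0.0264 with quantile normalization to 0.462 with the position score as a covariate and was 0.0454 without HFD 1. The proline and imino acid carrier Slc6a20a averaged 51.2 FPKM in FSP (24.3 to 76.7), 56.7 FPKM in HFD (26.2 to 87.3) and 48.4 FPKM in ND (37.3 to 56.5), a spread within groups far above the difference between them, and it has a close paralog, Slc6a20b. Means of the glutamine carrier Slc1a5 were 13.5, 9.99 and 12.8 FPKM in FSP, HFD and ND libraries (range 6.54 to 19.6 over all groups). Those of the taurine carrier Slc6a6 were 21.3, 14.7 and 20.2 FPKM (range 6.28 to 26.5), and those of the proton-coupled carrier of small amino acids Slc36a1 were 22.5, 18.1 and 23.2 FPKM (range 13.5 to 33.1). Intervals of these 3 genes for HFD against ND reached from −1.31 for Slc6a6 to 0.32 for Slc36a1 on the log2 scale, so that changes of that size were not resolved.

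**Figure D2:**
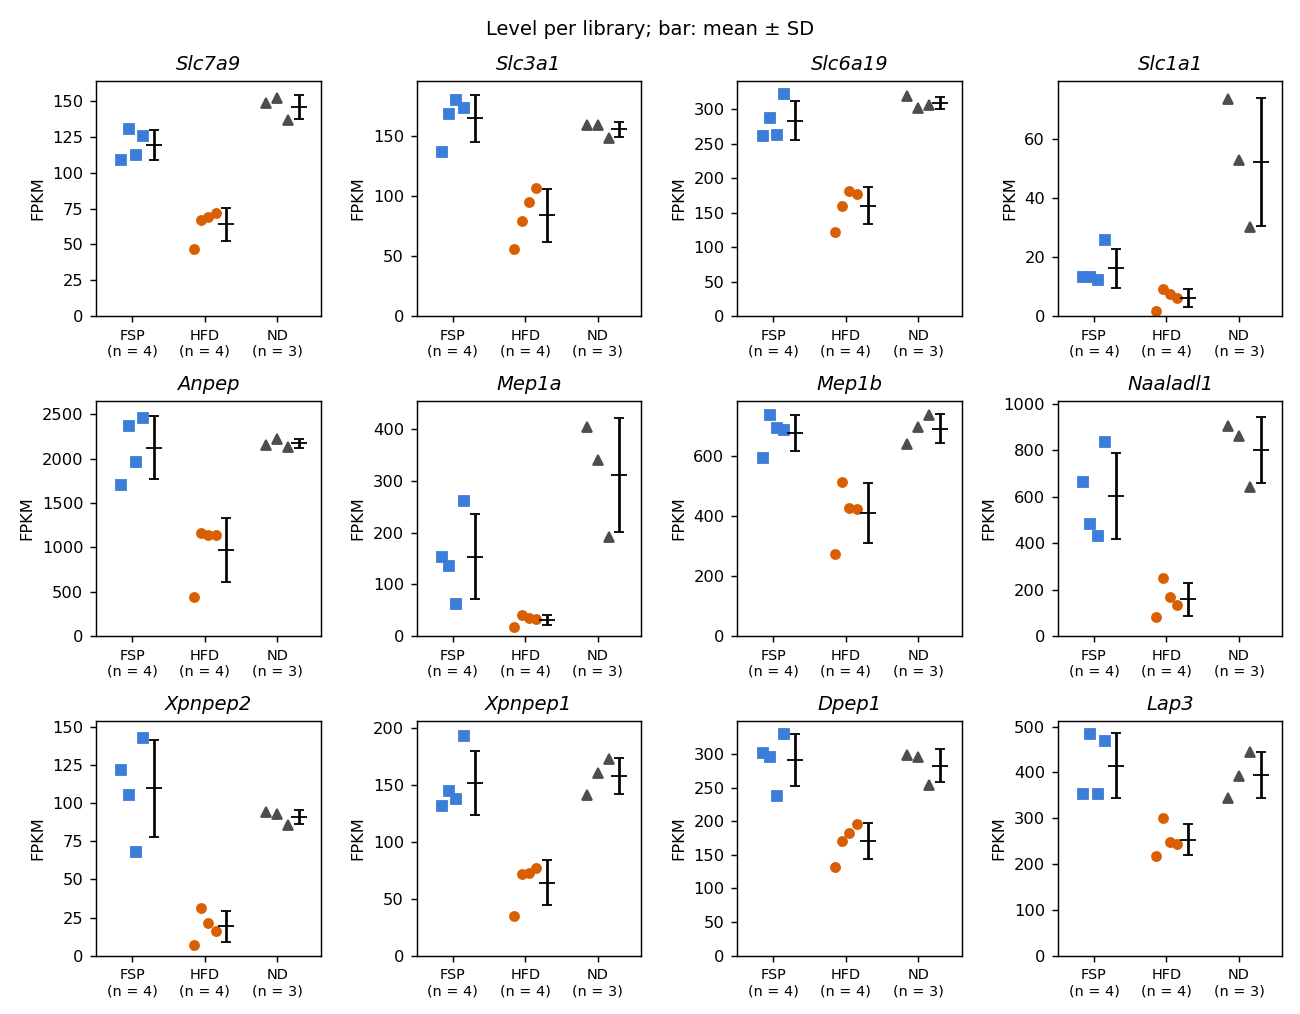
FPKM in each library of FSP (squares, n = 4), HFD (circles, n = 4) and ND (triangles, n = 3) for 12 members, 4 apical transporters and 8 peptidases; bars show the mean ± SD beside the points. HFD libraries lie below all FSP and ND libraries in each of the panels, and HFD 1, the leftmost circle, is the lowest HFD library in each.

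The basolateral transporters moved less. Slc43a2, a uniporter of branched-chain and other neutral amino acids, had 52.9, 50.1, 56.6 and 78.6 FPKM in FSP libraries, 15.4, 34.8, 36.8 and 39.9 FPKM in HFD libraries and 46.2, 56.3 and 69.4 FPKM in ND libraries. HFD lay below both other groups, yet the fall of 0.90 in HFD against ND (SE 0.29, limma adjusted p = 0.0493) was just past the threshold. It ended when any of the 3 ND, the FSP 1 to FSP 3 or the HFD 1 to HFD 3 libraries was left out, with an adjusted p of up to 0.140 without ND 3 (log2 change −0.75), while without HFD 1 the log2 change was −0.59 (adjusted p = 0.0534). The log2 change of 0.95 in FSP against HFD missed the threshold (SE 0.27, adjusted p = 0.0807). Slc38a2, a sodium-coupled carrier induced when amino acids are scarce, stood at 18.1, 11.4, 18.8 and 17.2 FPKM in FSP libraries, 15.1, 16.9, 14.9 and 13.1 FPKM in HFD libraries and 22.2, 21.5 and 20.8 FPKM in ND libraries. FSP and HFD overlapped and both lay below ND. Its fall of 0.50 in HFD against ND (SE 0.16, adjusted p = 0.0457) was lost with 8 of the 11 libraries left out in turn, all but HFD 2, FSP 2 and FSP 3, with an adjusted p of up to 0.142 without ND 1.

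The heavy chain Slc3a2 and its light chain partners passed in no comparison with all libraries as deposited. Slc3a2 and Slc7a8 passed as higher in HFD against ND without HFD 1. They also did so with scaling to the epithelial markers and with median-ratio scaling without HFD 1. Slc7a8 passed as higher with median-ratio scaling and quantile normalization too. Slc3a2 averaged 34.3 FPKM in FSP (30.3 to 36.2), 31.1 FPKM in HFD (19.4 to 37.2) and 26.3 FPKM in ND (22.6 to 29.9). Slc7a7, the light chain that exports cationic amino acids and is lost in lysinuric protein intolerance, averaged 89.3 FPKM in FSP (77.2 to 98.9), 71.7 FPKM in HFD (56.0 to 88.1) and 83.6 FPKM in ND (74.9 to 91.1). Slc7a8, the light chain for neutral amino acids, averaged 34.7 FPKM in FSP (22.6 to 43.4), 35.5 FPKM in HFD (13.3 to 50.4) and 17.5 FPKM in ND (11.7 to 23.6). For Slc7a8 the log2 change of 0.87 in HFD against ND had an interval from −0.01 to 1.75 (limma adjusted p = 0.135), and 3 of the 4 HFD libraries lay above all ND libraries while HFD 1 lay among them. Slc7a5, the light chain of dividing cells, was near the filter, at 1.15 FPKM in FSP (0.417 to 1.90), 0.989 FPKM in HFD (0.483 to 1.28) and 1.36 FPKM in ND (1.10 to 1.67). The aromatic amino acid uniporter Slc16a10 averaged 41.3 FPKM in FSP, 38.7 FPKM in HFD and 40.8 FPKM in ND, and its 95% interval in HFD against ND, from −0.41 to 0.28 on the log2 scale, leaves out a change as large as that of Slc7a9.

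Among peptidases 9 passed in HFD against ND and 9 in FSP against HFD, with Enpep only in the former and Pepd only in the latter. Those of the membrane come first here. Mep1a and Mep1b encode the alpha and beta subunits of meprin, a metalloprotease of the brush border that cuts dietary and mucosal proteins. Mep1a stood at 153, 136, 62.6 and 261 FPKM in FSP libraries, at 17.1, 40.6, 34.3 and 32.8 FPKM in HFD libraries and at 406, 341 and 191 FPKM in ND libraries. Mep1b stood at 595, 736, 696 and 689 FPKM in FSP libraries, at 273, 512, 427 and 424 FPKM in HFD libraries and at 642, 697 and 737 FPKM in ND libraries. HFD lay below both other groups for both subunits. Mep1a fell by 3.28 in HFD against ND (SE 0.44, limma adjusted p = 0.000959), the largest fall among the members, and rose by 2.15 in FSP against HFD (SE 0.40, adjusted p = 0.0202). Mep1b fell by 0.79 (SE 0.19, adjusted p = 0.0141) and rose by 0.76 (SE 0.17, adjusted p = 0.0391). The rise of Mep1a did not hold without FSP 1, HFD 3 or FSP 4 (adjusted p of up to 0.0616), nor that of Mep1b without any of 9 libraries, all but HFD 1 and HFD 2 (up to 0.116), and the fall of Mep1b did not hold without ND 2 (0.0601).

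Xpnpep2, the membrane-bound aminopeptidase P, which removes a residue ahead of proline, had 122, 106, 68.1 and 143 FPKM in FSP libraries, 7.18, 31.4, 21.7 and 16.4 FPKM in HFD libraries and 94.5, 92.7 and 85.6 FPKM in ND libraries. Naaladl1, a peptidase of the ileal brush border in rat, had 664, 484, 431 and 835 FPKM in FSP libraries, 80.3, 248, 169.7 and 135 FPKM in HFD libraries and 904, 860.3 and 641 FPKM in ND libraries. For both genes the highest HFD library lay far below the lowest library of the other groups, while FSP and ND overlapped. Xpnpep2 fell by 2.35 in HFD against ND (SE 0.38, limma adjusted p = 0.00228) and rose by 2.57 in FSP against HFD (SE 0.36, adjusted p = 0.00943). Naaladl1 fell by 2.43 (SE 0.34, adjusted p = 0.00117) and rose by 1.99 (SE 0.31, adjusted p = 0.0117). With each of the 11 libraries left out in turn, these 2 genes and Slc7a9 stayed past the threshold in both comparisons.

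Anpep, aminopeptidase N, the most abundant member in each group, had 1704, 2366, 1961 and 2457 FPKM in FSP libraries, 436, 1159, 1139 and 1143 FPKM in HFD libraries and 2153, 2223 and 2134 FPKM in ND libraries. HFD 1 stood far below the other HFD libraries, which lay close together, and all HFD libraries lay below the other groups. Anpep fell by 1.27 in HFD against ND (SE 0.31, limma adjusted p = 0.0153, and up to 0.0625 without ND 1 or ND 2) and rose by 1.22 in FSP against HFD (SE 0.28, adjusted p = 0.041). The rise held only without HFD 1 or HFD 2, and the adjusted p reached 0.131 without FSP 4. Enpep, aminopeptidase A, which removes acidic residues, had 303, 422, 454 and 529.8 FPKM in FSP libraries, 123, 268, 272 and 249 FPKM in HFD libraries and 734, 624 and 514 FPKM in ND libraries. FSP lay between the others, above HFD and overlapping ND. Enpep fell by 1.50 in HFD against ND (SE 0.28, adjusted p = 0.0044), and its log2 change of 0.94 in FSP against HFD missed the threshold (SE 0.26, adjusted p = 0.0728). Dpep1, the membrane dipeptidase, which splits cystinylglycine and other dipeptides, had 301, 296, 237 and 330.0 FPKM in FSP libraries, 133, 171, 182 and 195 FPKM in HFD libraries and 298, 295 and 255 FPKM in ND libraries. Dpep1 fell by 0.74 (SE 0.16, adjusted p = 0.0083) and rose by 0.78 (SE 0.15, adjusted p = 0.0202), HFD lying below both groups, and the rise ended without FSP 1, HFD 3 or FSP 4 (up to 0.0738).

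Of the cytosolic peptidases, Xpnpep1 and Lap3 passed in both comparisons and Pepd in FSP against HFD. Xpnpep1, the cytosolic aminopeptidase P, had 131, 145, 138 and 193 FPKM in FSP libraries, 34.8, 71.8, 72.8 and 76.7 FPKM in HFD libraries and 142, 160.1 and 173 FPKM in ND libraries. Lap3, leucine aminopeptidase, had 353, 483, 353 and 469 FPKM in FSP libraries, 219, 301, 249 and 245 FPKM in HFD libraries and 344, 393 and 445 FPKM in ND libraries. HFD lay below both other groups for both genes. Xpnpep1 fell by 1.35 in HFD against ND (SE 0.25, limma adjusted p = 0.00416) and rose by 1.28 in FSP against HFD (SE 0.23, adjusted p = 0.0175, and 0.0631 without FSP 4). Lap3 fell by 0.64 (SE 0.16, adjusted p = 0.0198, and up to 0.0754 without ND 2 or ND 3) and rose by 0.70 (SE 0.15, adjusted p = 0.0303), a rise that ended without HFD 1, HFD 3, HFD 4, FSP 2, FSP 4 or ND 2 (up to 0.107). Pepd, prolidase, which splits dipeptides ending in proline, had 328, 339, 307 and 354 FPKM in FSP libraries, 169.8, 204, 222 and 239 FPKM in HFD libraries and 211, 259 and 297 FPKM in ND libraries. FSP lay above both other groups, which overlapped each other. Pepd rose by 0.68 in FSP against HFD (SE 0.14, adjusted p = 0.0256), not past the threshold without FSP 1, FSP 2, FSP 4, HFD 3 or ND 2 (up to 0.0909), and between HFD and ND it differed by −0.29 on the log2 scale (SE 0.15, adjusted p = 0.178).

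The remaining peptidases passed in no comparison with all libraries as deposited. Mme passed as higher in HFD against ND without HFD 1, with a replicate block, and with median-ratio, quantile or epithelial scaling. Neprilysin (Mme), which degrades peptide hormones, averaged 134 FPKM in FSP (83.2 to 214), 157 FPKM in HFD (85.6 to 217) and 76.7 FPKM in ND (63.4 to 95.5), with a log2 change of 0.94 in HFD against ND (SE 0.36, limma adjusted p = 0.0809). Angiotensin-converting enzyme (Ace) averaged 335 FPKM in FSP (232 to 509), 289 FPKM in HFD (148 to 434) and 201 FPKM in ND (137 to 271). Gamma-glutamyltransferase (Ggt1), which starts the breakdown of lumenal glutathione, averaged 306 FPKM in FSP (266 to 371), 267 FPKM in HFD (214 to 342) and 253 FPKM in ND (234 to 269). These 3 membrane enzymes did not fall past the threshold where 9 other peptidases did, with 95% intervals in HFD against ND starting at 0.16 for Mme, −0.39 for Ace and −0.34 for Ggt1. Enteropeptidase (Tmprss15), which activates trypsinogen in the duodenum, did not pass the filter. It was listed at 0 in all 3 ND libraries and in FSP 1 and FSP 2, at 0.00627 FPKM or less in FSP 3 and FSP 4, and at 0.0150, 0, 0.364 and 0.545 FPKM in HFD libraries.

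**Figure D3:**
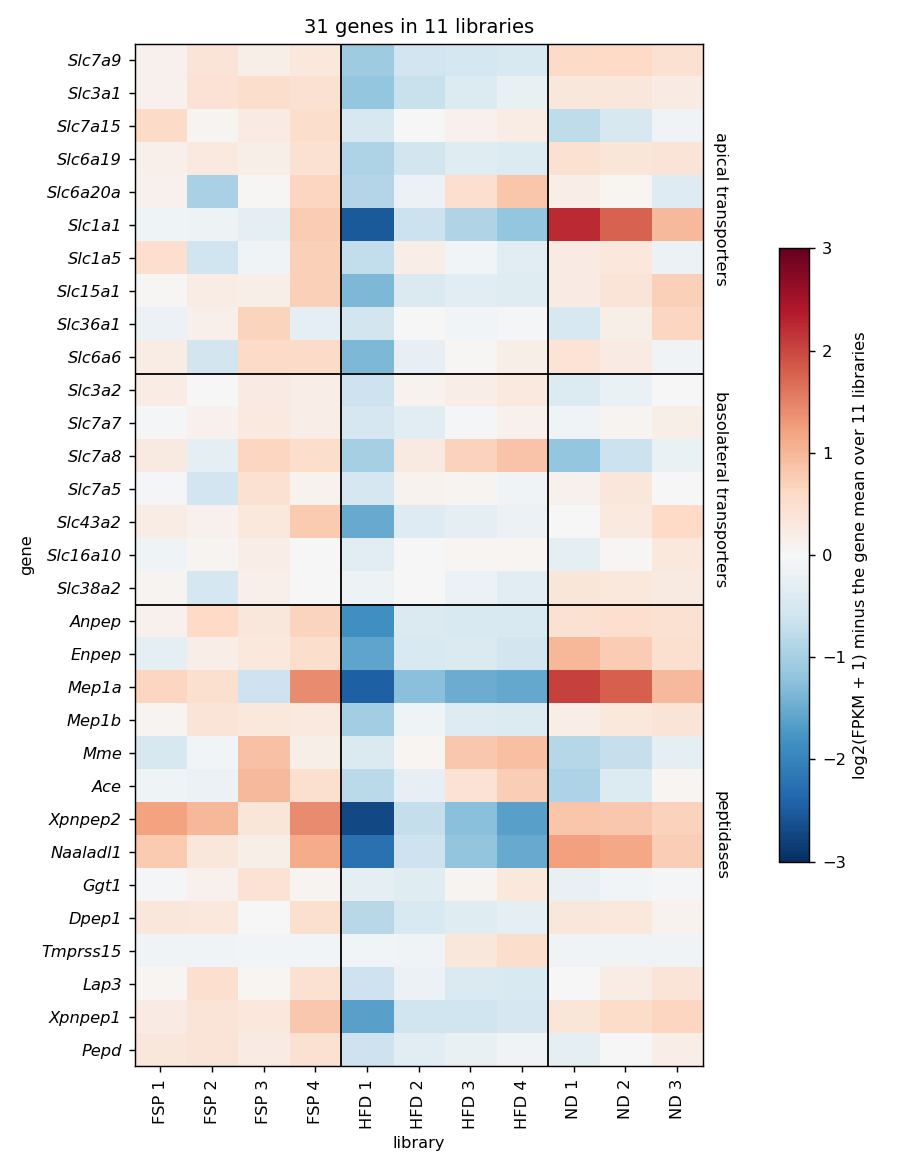
Each cell is log2(FPKM + 1) of a member in a library minus the gene's mean over the 11 libraries, in rows grouped as apical transporters, basolateral transporters and peptidases and in columns FSP 1 to 4, HFD 1 to 4 and ND 1 to 3. Blue cells gather in the HFD columns of the 16 genes that fell, most strongly in HFD 1, while Slc7a8, Mme and Ace are red in HFD 3 and HFD 4.

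Where partners form a complex or act at the same step, the ratio of their levels, (FPKM + 1) over (FPKM + 1), was taken within each library, which depends little on the library's total where both levels are far above the pseudocount of 1. Of 27 such tests (9 pairs in 3 comparisons, two-sided exact permutation), the smallest p the design allows is 0.0286 and the smallest adjusted p found was 0.0964, so none passed 0.05. The log2 ratio of Mep1a to Mep1b was −1.95, −2.43, −3.45 and −1.39 in FSP libraries, −3.92, −3.63, −3.60 and −3.65 in HFD libraries and −0.66, −1.03 and −1.94 in ND libraries. Mep1a thus changed more than its partner, by −2.49 in HFD against ND and by 1.39 in FSP against HFD, both with exact permutation p = 0.0286, and no HFD library overlapped either of the other groups. The log2 ratio of Slc7a15 to Slc7a9 was −1.30, −2.05, −1.69 and −1.55 in FSP libraries, −1.16, −1.20, −1.11 and −1.06 in HFD libraries and −3.08, −2.84 and −2.30 in ND libraries. The groups did not overlap in any comparison (differences of 1.61 for HFD minus ND, −0.51 for FSP minus HFD and 1.10 for FSP minus ND, exact permutation p = 0.0286 each).

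The log2 ratio of Slc7a9 to its heavy chain Slc3a1 averaged −0.46 in FSP, −0.37 in HFD and −0.10 in ND libraries, differing by −0.36 in FSP against ND (exact permutation p = 0.0286) and by −0.28 in HFD against ND (exact permutation p = 0.0857). That of Slc7a7 to its heavy chain Slc3a2 averaged 1.35 in FSP, 1.20 in HFD and 1.64 in ND libraries, with a difference of −0.44 in HFD against ND (exact permutation p = 0.0571). The peptide carrier Slc15a1 over Slc6a19 averaged −0.50 in FSP, −0.58 in HFD and −0.47 in ND libraries, a difference of −0.11 in HFD against ND (exact permutation p = 0.657). The ratios of Slc7a8 and of Slc7a5 to Slc3a2 had exact permutation p-values of 0.0857 or more in every comparison, with differences for Slc7a8 of 0.67 in HFD against ND and 0.58 in FSP against ND. The ratio of Slc6a19 to Cltrn differed by −0.91 in HFD against ND and by 0.74 in FSP against HFD (exact permutation p = 0.0286 each), but with Cltrn near 0 its lower term is almost the pseudocount alone, so that it is in effect the level of Slc6a19 and depends on the library's total.

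**Figure D4:**
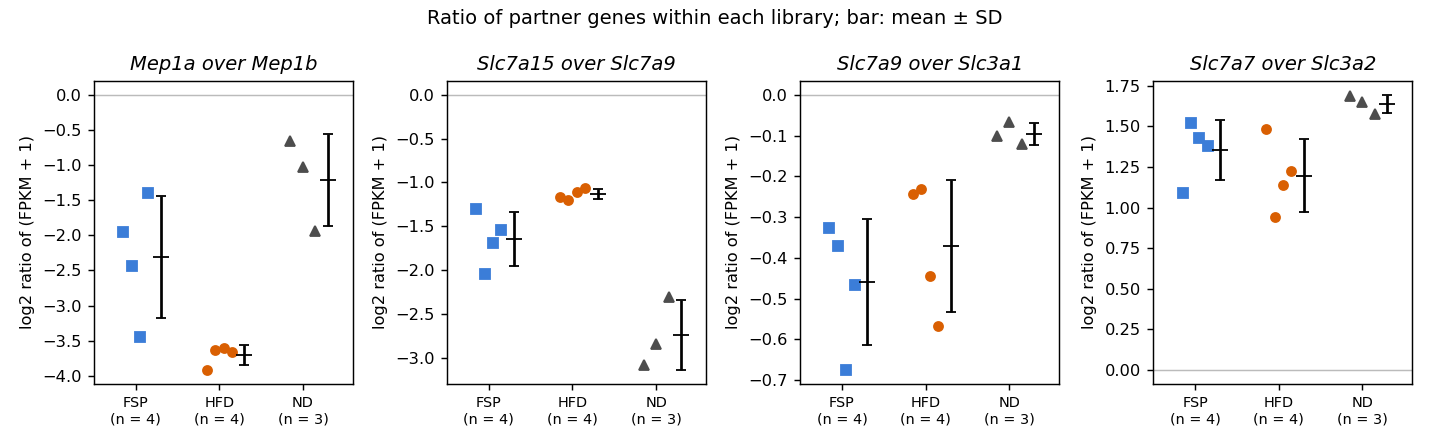
Log2 ratio of partner genes, (FPKM + 1) over (FPKM + 1), in each library of FSP (squares), HFD (circles) and ND (triangles), with the mean ± SD (n = 4, 4 and 3) beside the points. The HFD libraries lie lowest for Mep1a over Mep1b and highest for Slc7a15 over Slc7a9, while for the exchanger chains Slc7a9 over Slc3a1 and Slc7a7 over Slc3a2 the ND libraries lie highest.

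Within FSP and ND, some members were lowest and highest in the same libraries as the position score. FSP 3 and ND 3 had the lowest scores of their groups, −0.15 and 1.53, and FSP 4 and ND 1 the highest, 2.45 and 4.12. Of the 30 tested members 5, Mep1a, Naaladl1, Slc1a1, Xpnpep2 and Dpep1, were lowest in FSP 3 and in ND 3 and highest in FSP 4 and in ND 1. Another 8, Mme, Ace, Ggt1, Slc7a8, Slc7a7, Slc3a2, Slc16a10 and Slc36a1, were highest in FSP 3 and in ND 3. This is a looser order, and only 1 of them, Slc36a1, was also lowest in FSP 4 and in ND 1. With all libraries as deposited, none of these 8 passed the threshold in a comparison between groups, while the 5 all fell in HFD against ND. The share of all genes tested that followed either order was not counted. Whether the members differ from the rest of the table in this is therefore not known. Of the distal genes 8 of 10 fell in HFD against ND and 5 of 10 rose in FSP against HFD, and of the 8 proximal genes tested 7 rose and 1 fell in HFD against ND and 2 fell in FSP against HFD. No member is in either list, and their part in the changes of the members was not tested.

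**Figure D5:**
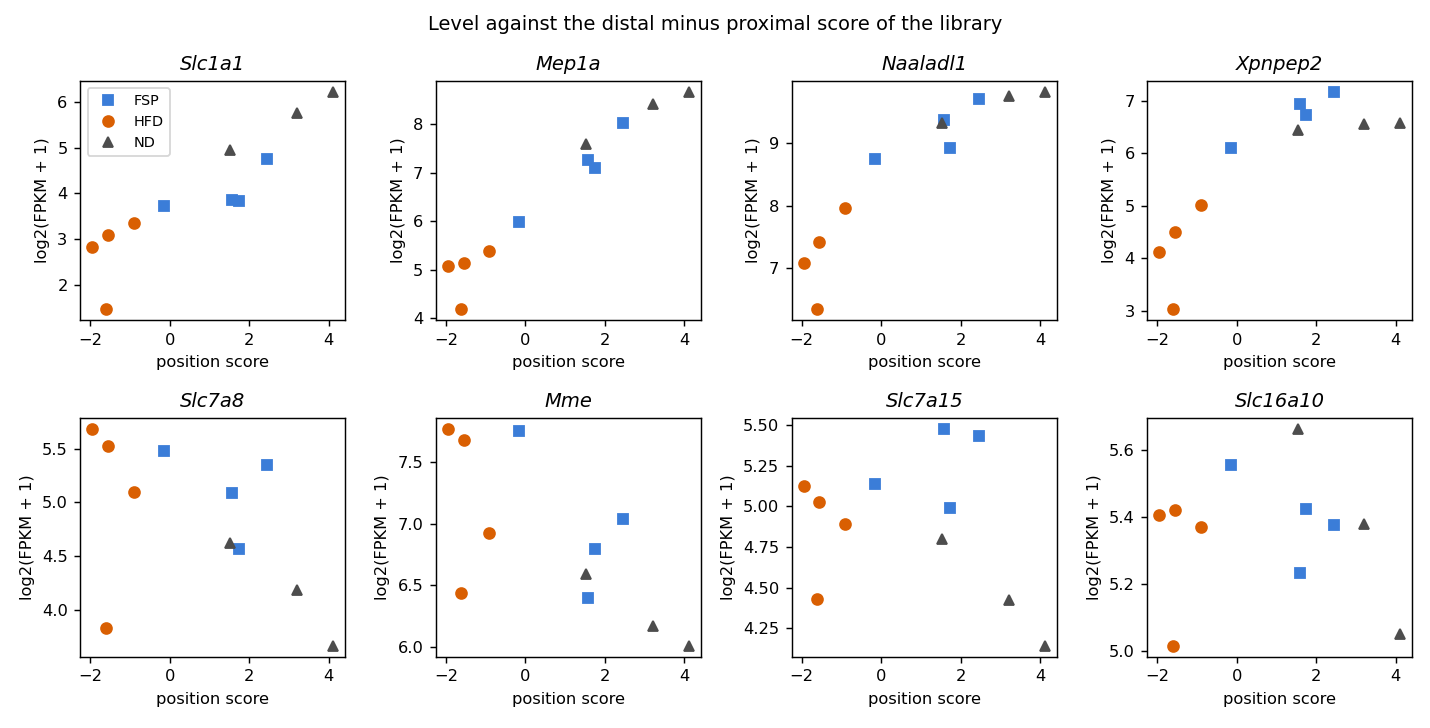
Log2(FPKM + 1) of 8 members in each library against the position score of that library (mean log2 of distal minus proximal genes), for FSP (squares), HFD (circles) and ND (triangles). In the upper row (Slc1a1, Mep1a, Naaladl1, Xpnpep2) the libraries with a score below 0, all HFD libraries and FSP 3, lie below all others. In the lower row Slc7a8, Mme and Slc7a15 are lowest in ND 1, the library with the highest score, and Slc16a10 is lowest in HFD 1.

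Other genes of protein uptake were counted from lists of 20 further transporters and 20 further peptidases of enterocytes. Of the transporters only 5 passed the filter on low values. Of 16 tested peptidases, 5 fell in HFD against ND (log2 changes of −1.36 for the dipeptidyl peptidase Dpp4, −1.10 for the carboxypeptidase Cpd, −1.43 for the bleomycin hydrolase Blmh, −0.49 for the carnosine dipeptidase family member Cndp2 and −0.66 for Ggt6). The aminoacylases Acy3 and Acy1, which free amino acids from acylated forms, rose by 0.99 and 1.02. In FSP against HFD 3 rose, namely Dnpep, an aspartyl aminopeptidase, by 1.37, Cndp2 by 0.71 and Dpp4 by 1.09. Dnpep averaged 102 ± 18.5 FPKM in FSP, 38.9 ± 8.64 FPKM in HFD and 53.7 ± 10.2 FPKM in ND. In FSP against ND, 0 of the 16 peptidases passed by limma (5 at an unadjusted p under 0.05).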

How the data were processed

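RNA was sequenced from mouse small intestine in 11 libraries of 3 groups, taken from the sample titles. Per the labels' protocols, TRIzol was used for extraction and a VAHTS Universal V6 kit for the libraries. The submitters' processing notes name the build mm10 and, as tools, HTSeq, HISAT2, R 3.2.0 and fastp. Annotation and strand use were not given in the sources used here. Levels were deposited by the authors as FPKM per gene and library, so a rise of any abundant class of RNA lowers every other gene. The single-library tables held the same values as the authors' table of all libraries for shared genes, and each listed all 31 members. Those of FSP listed the same 24250 genes, while those of HFD and ND listed 24294, of which 23609 were shared. Whether FSP was processed in another way is not stated. Such a difference could not be told apart from the group in the comparisons with FSP.

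Values were tested as log2(FPKM + 1), a pseudocount of 1, with limma 3.58.1 in R 4.3.3 (intensity trend, 3 groups in 1 fit, two-sided, Benjamini-Hochberg over all tested genes, threshold 0.05) on the 10296 genes with a mean of at least 1 FPKM. This scale understates changes of low genes. The script was tested on simulated data. Depth was estimated from 613 genes with a single exon, in which 78.2% to 83.9% of low values lay within 0.05 of a whole fragment, so that 1 FPKM over 1 kb meant 31.8 fragments in the library of least depth, and precision is limited mainly for genes near or under this level. Intervals are 95% intervals of the fit. Ratios of partner genes were compared by exact permutation tests, adjusted over all pairs and comparisons. Some genes outside the members, with 1 partner pair, were tested and are not reported here.

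The members and lists were chosen with earlier results of these data known. Library values are given for each member past the threshold in at least 1 comparison, the others by mean and range, and of every other list up to 4 members with the smallest p are named per comparison. Exceptions are the further peptidases in HFD against ND, where all 7 past the threshold are named, and the untested colon genes Aqp8 and Ly6g6c. Promoters come from RefSeq (GRCm38.p6), where 26 of the 31 members had an entry. Gene positions and exon overlaps come from GENCODE (GRCm38). Alternatives changed the pseudocount, filter, scaling, samples in the fit, the replicate block, the position score as a covariate and each library in turn, and 2 more, median-ratio scaling without HFD 1 and scaling to the epithelial markers, were chosen after seeing the data.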

Additional observations from a re-analysis of the deposited data

Results flagged for a closer look

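In each member, the groups of 4 libraries (FSP and HFD, 62 groups in all) were searched for a library set far apart from the other 3, by Dixon's ratio of gap to range at the 95% critical value. Of these, 7 stood apart. Chance alone sets apart about 1 in 20 independent groups, but these groups share the same libraries, so the count cannot be weighed against that share. HFD 1 was the library in 6 of the 7 and lay below the others of its group each time. The aminopeptidase gene Anpep was at 436 FPKM in HFD 1 and at 1139 to 1159 FPKM in the other HFD libraries, and Enpep was at 123 FPKM against 249 to 272 FPKM. The cytosolic Xpnpep1 was at 34.8 FPKM in HFD 1 and at 71.8 to 76.7 FPKM in the others. Of the carriers, Slc15a1 was at 63.6 FPKM in HFD 1 against 120.2 to 129 FPKM, Slc36a1 at 13.5 FPKM against 19.1 to 20.2 FPKM and Slc16a10 at 31.3 FPKM against 40.3 to 41.8 FPKM. HFD 1 also had the highest mitochondrially encoded share, 40.4%, and the lowest mean log2 level of the epithelial markers, 7.49, and the part of either in these values was not tested.

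The glutamate carrier Slc1a1 was at 25.8 FPKM in FSP 4 and at 12.1 to 13.4 FPKM in the other FSP libraries. FSP 4 had the highest position score of its group, 2.45.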

How the results depend on the processing

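No member past the threshold changed sign under any alternative. In HFD against ND, member calls ranged from 11 to 17 with each library left out in turn and genes called from 849 to 2678 (2109 with all libraries). The 17 calls, without HFD 1, were 14 falls and 3 rises (Mme, Slc3a2 and Slc7a8). With the position score as a covariate, 0 members and 0 genes passed, and median-ratio scaling without HFD 1 gave 1194 genes. Median-ratio scaling and scaling to the epithelial markers each lost Dpep1, Lap3, Mep1b, Slc38a2 and Slc43a2. Both, and quantile normalization, gained Mme, Slc7a15 and Slc7a8 as higher in HFD. Epithelial scaling and median-ratio scaling without HFD 1 gained these and Slc3a2, and quantile normalization also gained Pepd as lower. Quantile normalization gave 1125 higher and 1185 lower genes and epithelial scaling 1374 and 498, with median log2 changes of all genes of −0.03 and 0.10. In FSP against HFD, member calls ranged from 3 to 12 and genes called from 48 to 458 (385 with all libraries). Without the filter 4 members and 117 genes passed, with only the 2 groups compared 4 and 76, with the position score 0 and 0, and with median-ratio scaling without HFD 1 3 and 71. Median-ratio scaling gave 245 genes and epithelial scaling 1108 (87 higher, 1021 lower; median −0.24). Quantile normalization gave 249 higher and 194 lower genes, and equal totals without mitochondrially encoded genes 159 and 122. In FSP against ND, member calls ranged from 0 to 2 and genes called from 13 to 201 (106 with all libraries). Median-ratio scaling and quantile normalization each gave 1 member (Slc7a15, higher), and epithelial scaling and median-ratio scaling without HFD 1 each gave 2 (Slc7a15, higher, and Slc1a1, lower). The gene count was 58 without the filter, 192 with quantile normalization and 16 with the position score. The cause of these shifts was not tested. Same-numbered libraries of different groups correlated at r between −0.099 and 0.454 in their deviations from the group means. The 4 such pairs of HFD and FSP lay between 0.018 and 0.454, and pairs of unlike number ran from −0.616 to 0.647. In each group the mitochondrially encoded share fell and the estimated depth rose from the first to the last number. So few pairs cannot decide whether the numbers pair libraries or follow an order of processing. With a replicate block 2357, 337 and 77 genes and 16, 14 and 0 members passed in the 3 comparisons. The 16 in HFD against ND included Mme, which was higher in HFD. No call on a partner ratio changed, but this says little. With a smallest possible p of 0.0286 in the exact permutation test, a ratio passes only if many of the 27 tests reach it. Depth limits Slc7a5 and Tmprss15.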

Other observations

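Genes that use amino acids inside the enterocyte moved in both directions. Of 16 tested in HFD against ND, the arginase Arg2 rose by 1.84 on the log2 scale (346 ± 68.9 FPKM in FSP, 509 ± 179.9 FPKM in HFD and 142 ± 54.8 FPKM in ND, SD, n = 4, 4 and 3) and Bckdha, a subunit of the branched-chain keto acid dehydrogenase, by 0.59. The proline dehydrogenase Prodh fell by 1.38. In the comparisons of FSP with HFD and with ND, 0 of the 16 passed by limma (4 and 5 at an unadjusted p under 0.05). Of 10 tested genes of the ATF4 response to amino acid shortage, the asparagine synthetase Asns fell by 1.02 in HFD against ND (3.73 ± 0.83 FPKM in FSP, 3.19 ± 1.28 FPKM in HFD and 7.15 ± 0.44 FPKM in ND), and 0 passed by limma in FSP against HFD or against ND (0 and 2 at an unadjusted p under 0.05). Pancreatic acinar proteases summed to 4.54 to 8.10 FPKM in every library.

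Among markers of other cell types, 0 of 8 tested crypt and cycling genes passed by limma in any comparison (at most 1 at an unadjusted p under 0.05), and likewise 0 of the 3 tested T cell and 0 of the 8 smooth muscle markers (0 at an unadjusted p under 0.05). Jchain was the only B and plasma cell marker past the threshold, higher in FSP against ND by 2.76. Of the 7 tested adipocyte markers Cidec and Pparg rose in HFD against ND by 1.66 and 1.19, while the other 5 did not pass. Pparg alone of the 7 fell in FSP against HFD, by 0.81, and Cidec alone rose in FSP against ND, by 1.40. Of the 9 colon genes listed, 3 were tested. Of these, Cyp2c55 and Saa1 fell in HFD against ND by 3.47 and 5.94, and Cyp2c55 fell in FSP against ND by 2.95. Among those under the filter, Aqp8 and Ly6g6c went the other way. Aqp8 was at 0.259 to 1.90 FPKM in HFD and 0.0184 to 0.0906 FPKM in ND libraries. Ly6g6c was at 0.360 to 0.741 FPKM in HFD and at most 0.112 FPKM in ND libraries.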
